A study of Mus musculus with 10 samples.

Results

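The 10 genes described here encode the calcium pumps of the endoplasmic reticulum (ER), its calcium release channels and the proteins that refill it from outside the cell. They were chosen by name from the 47340 genes of the deposited table for their role in ER calcium handling, with earlier results of these data known. The rule itself uses names and no measured value. Atp2a2 and Atp2a3 are the SERCA pumps, Itpr1, Itpr2, Itpr3 and Ryr2 are the release channels, Stim1 and Stim2 are the store sensors, Orai1 is the entry channel and Saraf is a regulator of entry. All 10 were found in the table.

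mRNA was sequenced from pancreatic islets of 12-wk-old male mice on chow, with 5 floxed control mice (FL) and 5 mice with β cell deletion of FIT2 (KO, labelled beta-FIT2KO), and 1 library per mouse. FIT2, encoded by Fitm2, is an ER membrane protein needed to form lipid droplets. Both groups carried floxed Fitm2, and KO mice also carried Cre under the rat insulin promoter (RIP-Cre), which deletes the gene in β cells and leaves it in the other cells of the islet. The labels give the genotype of FL as wild type although their titles name them Flox. No islets with RIP-Cre alone are among the libraries, so the deletion and the Cre transgene cannot be told apart. Islets of all 10 mice were kept in CMRL medium overnight after isolation.

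SERCA pumps move calcium from the cytosol into the ER at the cost of ATP and so keep the store filled. Inositol 1,4,5-trisphosphate (IP3), made by phospholipase C when surface receptors are activated, opens IP3 receptors, and calcium itself can open ryanodine receptors. When the store falls, STIM proteins in the ER membrane cluster at the plasma membrane and open ORAI channels, and β cells rely on this cycle to fold proinsulin and to shape the calcium signals that drive insulin secretion.

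Values are FPKM, read fragments per kilobase of transcript scaled to the number of mapped fragments, so levels of different genes can be compared per length. Library sums ranged from 646233 to 675470 FPKM in FL and from 627084 to 653292 FPKM in KO. Read counts are not part of the table, so the depth in reads is unknown, but the spacing of low values put the other libraries at 1.40 to 2.41 times the depth of FL 1. Fitm2, the targeted gene, averaged 23.3 ± 9.86 FPKM in FL against 6.95 ± 2.36 FPKM in KO (SD, n = 5), with every KO library under every FL library. The tests were made with limma on log2(FPKM + 1) for 13065 genes whose mean reached 1 FPKM in either group, and genes were called at a Benjamini-Hochberg adjusted p of at most 0.05. Fold changes on this scale understate the change of genes near 1 FPKM. Of all tested genes, 16.5% were called lower in KO, 9.05% were called higher, and 12.5% had every KO value below every FL value. The balance of calls depended on the scaling between libraries: 64.5% of called genes were lower in KO with FPKM as deposited, and 46.5% to 53.3% after 4 ways of rescaling.

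Of the 10 genes, 9 passed the filter on low values, of which Atp2a2 passed through KO alone, and 8 had a fold change. Atp2a3, Itpr2, Itpr3 and Stim1 fell in KO and 0 rose, against the 16.5% and 9.05% of all tested genes. At an unadjusted p under 0.05 from limma, Stim2 was added to the 4 that fell and still 0 rose. Itpr1, Stim2, Orai1 and Saraf were not called. For the 4 genes that fell, every KO value lay under every FL value, as for 12.5% of all tested genes. The median log2 fold change of the 8 genes was −0.25, and that of all tested genes was −0.06.

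**Figure D1:**
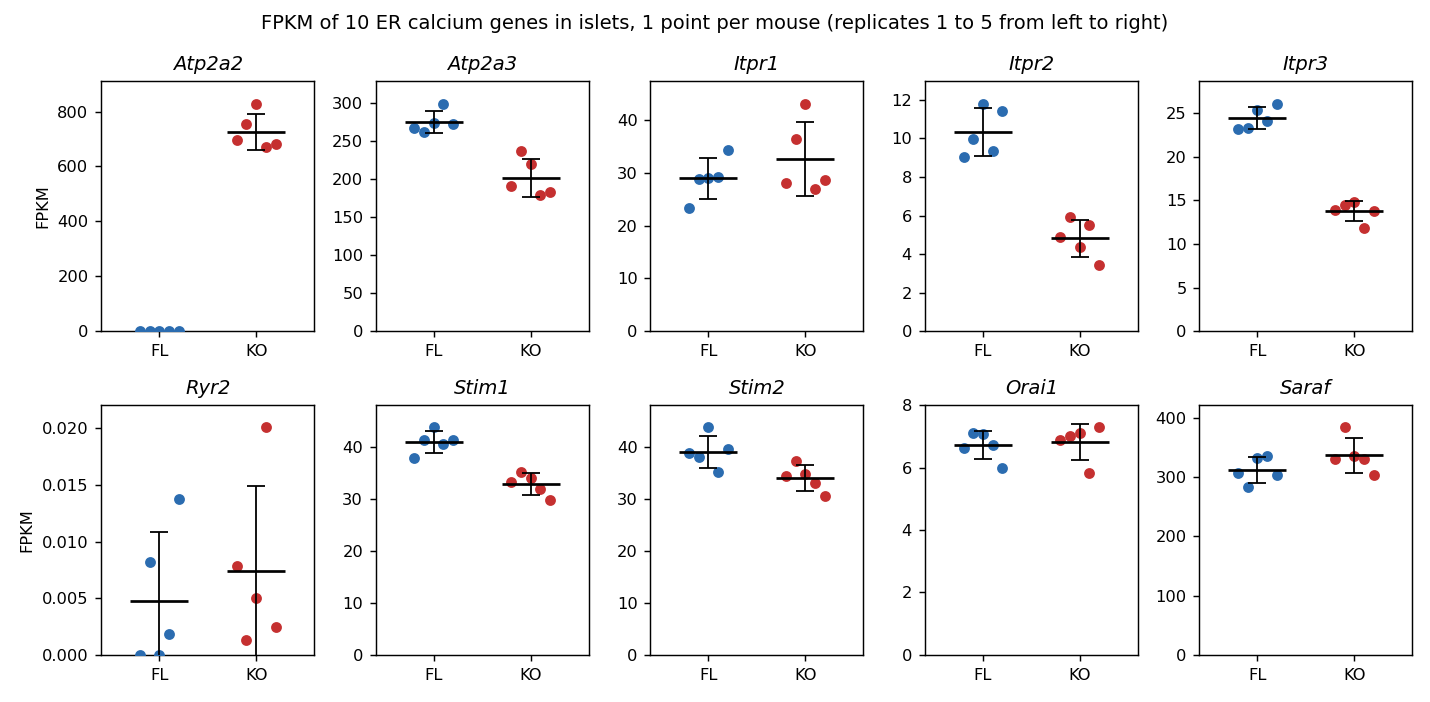
FPKM of each of the 10 genes (vertical axis, linear, a separate scale per gene) in FL (blue) and KO (red) islets, with 1 point per mouse, the mean as a horizontal line and 1 SD as bars (n = 5). KO points lie under all FL points for Atp2a3, Itpr2, Itpr3 and Stim1, Atp2a2 is at 0 in FL and has no mean or SD drawn there, and Ryr2 stays under 0.03 FPKM.

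The promoters of the 4 genes that fell are shown because these genes share a direction. They run from 250 bases before to 50 bases after the transcription start in RefSeq (GRCm38.p6), read 5′ to 3′ on the strand of the gene, at chr11:72960919-72961218 (plus strand) for Atp2a3, chr6:146502174-146502473 (minus strand) for Itpr2, chr17:27057054-27057353 (plus strand) for Itpr3 and chr7:102267569-102267868 (plus strand) for Stim1. Capitals mark GC boxes, the letters GGGCGG on either strand.
Atp2a3: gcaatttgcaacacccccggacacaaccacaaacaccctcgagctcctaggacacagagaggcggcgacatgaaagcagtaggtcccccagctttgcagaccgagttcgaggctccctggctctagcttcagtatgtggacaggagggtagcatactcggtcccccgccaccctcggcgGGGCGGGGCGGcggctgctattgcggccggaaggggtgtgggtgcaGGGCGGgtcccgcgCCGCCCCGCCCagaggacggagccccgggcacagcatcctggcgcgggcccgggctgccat
Itpr2: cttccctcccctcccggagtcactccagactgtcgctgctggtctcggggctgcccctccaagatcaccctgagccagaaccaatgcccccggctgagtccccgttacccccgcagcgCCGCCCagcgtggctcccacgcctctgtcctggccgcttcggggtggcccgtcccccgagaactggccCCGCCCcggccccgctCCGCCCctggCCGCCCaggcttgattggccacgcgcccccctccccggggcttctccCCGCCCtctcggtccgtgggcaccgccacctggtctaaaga
Itpr3: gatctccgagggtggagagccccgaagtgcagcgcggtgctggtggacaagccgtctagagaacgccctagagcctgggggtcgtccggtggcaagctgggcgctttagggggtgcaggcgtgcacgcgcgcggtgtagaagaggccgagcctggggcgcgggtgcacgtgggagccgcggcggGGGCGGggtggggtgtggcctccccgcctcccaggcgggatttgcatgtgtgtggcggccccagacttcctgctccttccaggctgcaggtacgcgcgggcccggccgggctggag
Stim1: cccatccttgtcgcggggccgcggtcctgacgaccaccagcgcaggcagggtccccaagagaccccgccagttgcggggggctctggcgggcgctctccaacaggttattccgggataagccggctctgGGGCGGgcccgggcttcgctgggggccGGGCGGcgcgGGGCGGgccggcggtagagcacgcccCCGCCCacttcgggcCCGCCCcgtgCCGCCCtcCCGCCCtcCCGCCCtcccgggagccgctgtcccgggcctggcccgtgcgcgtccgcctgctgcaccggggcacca

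The GC box was present 5 times in the promoter of Atp2a3, 5 times in that of Itpr2, 1 time in that of Itpr3 and 8 times in that of Stim1. RefSeq promoters were matched for 7 of the 10 genes, and the GC box was also present in the other three: 2 matches in Ryr2, 3 in Stim2 and 3 in Orai1, against 35.7% of 32851 mouse promoters of the same length. Genes that fell and genes that were not called therefore both held it. GC content ranged from 65.3% (Ryr2) to 78.7% (Stim1), above the median promoter at 52.7%. The CCAAT box, searched as CCAAT on both strands, was in Itpr2, Stim2 and Orai1 and in 37.4% of all promoters. The ER stress element, searched on both strands as CCAAT and CCACG with 9 bases of any kind between them and so containing a CCAAT box, matched none of the 7 and 0.119% of all promoters. The TATA box, TATAAA on both strands, matched none of the 7 and 13.6% of all promoters. A match or its absence describes letters in this window and not the binding of a factor.

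Atp2a2 (ENSMUSG00000029467.15, chr5:122453513-122502225, minus strand) encodes SERCA2, the pump found in most cells. It was listed at 0 FPKM in all 5 FL libraries and at 695, 755, 828, 669.9 and 680.4 FPKM in KO 1 to KO 5. The KO mean of 726 ± 66.1 FPKM (SD, n = 5) ranked 75 among all genes of the table in KO. No fold change is given, since a listed 0 may stand for a failed estimate here. In all 10 libraries Ins1, Ins2, Iapp and Gcg, the main hormone genes of β and α cells, were listed at 0 as well. Besides Atp2a2, 2 genes were at 0 in every library of one group and at 50 FPKM or more in every library of the other. Pcsk2, a prohormone convertase, was at 0 in FL and at 948 to 1171 FPKM in KO, and Chgb, a granule protein, was at 648 to 794 FPKM in FL and at 0 in KO. The FL level of SERCA2 mRNA is therefore not known from these values, and whether it differed from KO could not be tested.

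Atp2a3 (ENSMUSG00000020788.15, chr11:72961169-72993044, plus strand) encodes SERCA3, a pump of lower calcium affinity that β cells express beside SERCA2. In FL 1 to FL 5 it was at 267, 263, 274, 299.6 and 272 FPKM, and in KO 1 to KO 5 at 191, 237, 219.6, 179.6 and 183 FPKM. Every KO library was under every FL library, with KO 2 and KO 3 nearest to FL. The mean fell by 26.5%, from 275 ± 14.4 to 202 ± 25.2 FPKM (SD, n = 5), which is −0.45 as a log2 fold change (SE 0.08, 95% interval −0.63 to −0.27, adjusted p = 0.00233 from limma). SERCA3 mRNA was among the more abundant mRNAs in both groups, at rank 324 in FL and 449 in KO. In KO, where both pumps have values, Atp2a2 was 3.18 to 3.77 times Atp2a3 (mean 3.61 ± 0.244, SD, n = 5). With a change of at least 1.5-fold also required, Atp2a3 was not called.

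Itpr1 (ENSMUSG00000030102.10, chr6:108213096-108551109, plus strand) encodes the type 1 IP3 receptor. Its FPKM in FL 1 to FL 5 was 23.4, 28.8, 29.1, 29.1 and 34.3, and in KO 1 to KO 5 it was 28.0, 36.4, 43.1, 26.9 and 28.7. KO 2 and KO 3 were above every FL library, and the other 3 KO libraries lay within the FL range. FL averaged 28.9 ± 3.88 FPKM and KO 32.6 ± 6.95 FPKM (SD, n = 5), and limma gave a log2 fold change of 0.15 with an SE of 0.14 and an adjusted p of 0.442. The 95% interval ran from −0.15 to 0.45, that is from 0.904-fold to 1.37-fold. The log2 fold change was 0.05 without KO 3 and 0.08 without FL 1.

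Itpr2 (ENSMUSG00000030287.15, chr6:146108299-146502223, minus strand) encodes the type 2 receptor, the isoform most sensitive to IP3. The 5 FL libraries were at 9.05, 9.95, 11.8, 9.33 and 11.4 FPKM, and the 5 KO libraries at 4.89, 5.90, 4.37, 5.53 and 3.46 FPKM. The highest KO library, KO 2, was well under the lowest FL library. The mean fell by 53.2%, from 10.3 ± 1.24 to 4.83 ± 0.966 FPKM (SD, n = 5), and the log2 fold change was −0.97 (SE 0.12, 95% interval −1.23 to −0.70, adjusted p = 0.000218 from limma), the largest of the 8. The pseudogene Gm15720 lies inside Itpr2 on the same strand without touching its exons. It was at 1.09 to 4.09 FPKM in FL and at 3.17 to 6.22 FPKM in KO, and the groups overlapped.

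Itpr3 (ENSMUSG00000042644.8, chr17:27057304-27122223, plus strand) encodes the type 3 receptor. Levels were 23.2, 23.3, 25.3, 24.0 and 26.0 FPKM in FL 1 to FL 5 and 13.9, 14.5, 14.8, 11.8 and 13.8 FPKM in KO 1 to KO 5. Both groups were tight, with a wide gap between them. It fell by 43.6%, from a mean of 24.4 ± 1.25 to 13.8 ± 1.16 FPKM (SD, n = 5), and the log2 fold change was −0.78 (SE 0.06, 95% interval −0.92 to −0.65, adjusted p = 9.04e-06 from limma). Its antisense gene Itpr3os overlaps exons of Itpr3 and was at most at 0.0899 FPKM. Itpr2 and Itpr3 were called in each of the 23 alternative analyses, 1.5-fold included.

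**Figure D2:**
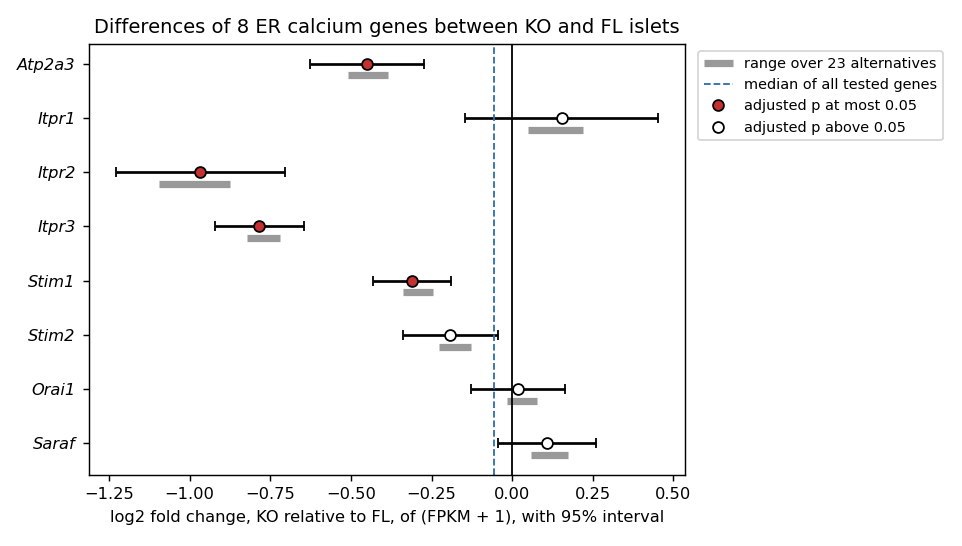
Log2 fold change of KO relative to FL on log2(FPKM + 1) for the 8 genes with a fold change (points, with 95% intervals as black bars), filled where the adjusted p from limma was at most 0.05. Grey bars give the range over 23 alternative analyses and the dashed line is the median of all tested genes (−0.06). Itpr2 and Itpr3 lie farthest to the left, and the intervals of Itpr1, Orai1 and Saraf span 0.

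With Itpr2 and Itpr3 lower and Itpr1 not called, the make-up of IP3 receptor mRNA differed between the groups, a quantity taken within each library that rescaling of whole libraries leaves as it is. The Itpr1 share of the summed IP3 receptor FPKM was 42.0%, 46.4%, 44.0%, 46.6% and 47.8% in FL 1 to FL 5. In KO 1 to KO 5 it was 59.9%, 64.1%, 69.2%, 60.8% and 62.4%. The groups did not overlap, with a mean of 45.4 ± 2.34% in FL and 63.3 ± 3.67% in KO (SD, n = 5). The Itpr3 share went from 38.4 ± 2.02% to 27.1 ± 2.68% and the Itpr2 share from 16.2 ± 1.05% to 9.58 ± 2.27% (SD, n = 5), again without overlap. Summed over the 3 receptors, FPKM was 63.6 ± 5.95 in FL and 51.2 ± 7.89 in KO (SD, n = 5), and the groups overlapped, since KO 2 and KO 3, at 56.8 and 62.2 FPKM, were above FL 1 at 55.6 FPKM, and KO 3 was also above FL 2 at 62.0 FPKM. Itpr1 had the largest share in every library of both groups, by the least in FL 1, where Itpr3 held 41.7%.

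**Figure D3:**
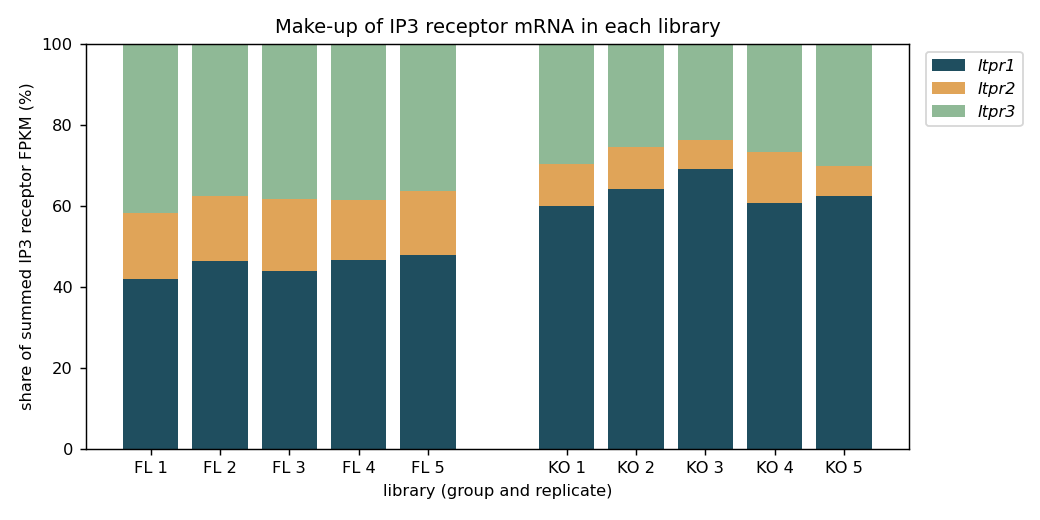
Share of the summed IP3 receptor FPKM (vertical axis, percent) held by Itpr1, Itpr2 and Itpr3 in each of the 10 libraries. The Itpr1 segment ends between 42.0% and 47.8% in FL and between 59.9% and 69.2% in KO.

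Ryr2 (ENSMUSG00000021313.15, chr13:11553102-12106945, minus strand) encodes the ryanodine receptor best known from heart muscle. It was at 0 to 0.0138 FPKM in FL and at 0.00135 to 0.0201 FPKM in KO. These values are close to 0, the groups overlapped (exact two-sided permutation p = 0.571, n = 5), and the gene did not pass the filter. Ryr2 was therefore not tested by limma, and its values are too low to show whether the groups differed.

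Stim1 (ENSMUSG00000030987.4, chr7:102267806-102437319, plus strand) encodes the main sensor of ER calcium. In FL 1 to FL 5 it was at 38.0, 41.5, 43.9, 40.6 and 41.5 FPKM, and in KO 1 to KO 5 at 33.3, 35.3, 34.2, 32.0 and 29.9 FPKM. All 5 KO libraries were under the lowest FL library. The mean fell by 19.8%, from 41.1 ± 2.11 to 33.0 ± 2.08 FPKM (SD, n = 5), and the log2 fold change was −0.31 (SE 0.06, 95% interval −0.43 to −0.19, adjusted p = 0.00233 from limma). The difference is under 1.5-fold, and Stim1 was not called where that was required.

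Stim2 (ENSMUSG00000039156.19, chr5:53998499-54121057, plus strand) encodes the sensor that responds to smaller falls of the store. The 5 FL libraries were at 38.8, 38.0, 43.7, 35.1 and 39.5 FPKM, and the 5 KO libraries at 34.4, 37.3, 34.8, 33.1 and 30.5 FPKM. In KO, 4 of 5 libraries were under every FL library, and KO 2 lay above FL 4. With means of 39.0 ± 3.10 FPKM (FL) and 34.0 ± 2.48 FPKM (KO; SD, n = 5), Stim2 had a log2 fold change of −0.19 (SE 0.07, 95% interval −0.34 to −0.04) that missed the threshold (adjusted p = 0.0567 from limma). Stim2 was called without FL 4 (adjusted p = 0.0326), without KO 2 (0.0318) and with sample weights estimated by limma (0.0139), and its adjusted p reached 0.16 after rescaling to the same sum. Stim1 made up 51.3 ± 1.66% of the summed FPKM of both sensors in FL and 49.2 ± 0.378% in KO (SD, n = 5). In FL, 4 of 5 libraries were above every KO library, and FL 1 at 49.5% lay within the KO range. The summed level of Stim1 and Stim2 was 75.7 to 87.5 FPKM in FL and 60.4 to 72.6 FPKM in KO, without overlap.

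Orai1 (ENSMUSG00000049686.14, chr5:123015074-123030456, plus strand) encodes the pore of store-operated entry. Its level was 6.63, 7.11, 7.08, 6.73 and 5.99 FPKM in FL 1 to FL 5 and 6.89, 7.00, 7.11, 5.82 and 7.28 FPKM in KO 1 to KO 5. The groups overlapped almost wholly, with means of 6.71 ± 0.453 (FL) and 6.82 ± 0.58 FPKM (KO; SD, n = 5). The log2 fold change was 0.02 (SE 0.07, 95% interval −0.13 to 0.16, adjusted p = 0.863 from limma), that is from 0.916-fold to 1.12-fold, and its sign was negative in 3 alternative analyses. The antisense gene Gm2479, which overlaps an exon of Orai1, was at most at 0.1 FPKM.

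Saraf (ENSMUSG00000031532.5, chr8:34154575-34170821, plus strand) encodes an ER membrane protein that binds STIM1 and slows store-operated entry. It stood at 307, 283, 333, 335 and 303 FPKM in FL 1 to FL 5 and at 331, 384, 335, 330.0 and 304 FPKM in KO 1 to KO 5. KO 2 stood clear of the FL range, while KO 3 was level with its upper end. Averages of 312 ± 21.6 FPKM (FL) and 337 ± 29.1 FPKM (KO; SD, n = 5) went with a log2 fold change of 0.11 (SE 0.07, 95% interval −0.04 to 0.26, adjusted p = 0.285 from limma). After rescaling to the same upper quartile the log2 fold change was 0.17 (adjusted p = 0.0347 from limma), the only alternative that called Saraf, and without KO 2 it was 0.06 (adjusted p = 0.497). Relative to Stim1 in the same library, Saraf was at 6.83 to 8.25 times in FL and at 9.80 to 10.9 times in KO, without overlap.

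Per length, the order of levels in FL was Saraf, Atp2a3, Stim1, Stim2, Itpr1, Itpr3, Itpr2, Orai1 and Ryr2, with Atp2a2 listed at 0. Of neighbours in this order, the libraries of Saraf and Atp2a3, of Stim1 and Stim2 and of Itpr1 and Itpr3 overlapped, and those of the others did not. In KO, Atp2a2 came first, the libraries of Saraf and Atp2a3 did not overlap, Itpr1 overlapped both Stim1 and Stim2, and all libraries of Itpr3 were under those of Itpr1. Orai1, below Itpr2 in all FL libraries, had a higher mean than Itpr2 in KO, where their ranges met.

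KO 2 and KO 3 stood highest within KO for several of these genes. Of the 5 KO libraries, they held the 2 highest values of Atp2a2, Atp2a3, Itpr1, Itpr3, Stim1, Stim2 and Saraf. For Itpr2 the 2 highest were KO 2 and KO 4, and for Orai1 they were KO 5 and KO 3. The same 2 libraries had the lowest summed acinar markers, 3248 and 3382 FPKM against 5861 to 23975 FPKM in the other KO libraries, and the highest summed β cell markers, 2605 and 2664 FPKM against 1920 to 2122 FPKM. The part of acinar RNA in the differences between KO libraries was not tested. Summed acinar markers overlapped between groups, at 4857 to 12992 FPKM in FL and 3248 to 23975 FPKM in KO, and 0 of the 11 tested acinar genes were called by limma (0 at an unadjusted p under 0.05).

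The islet libraries hold RNA of several cell types, and in bulk RNA fewer cells of a type and less RNA per cell cannot be told apart. Of 11 β cell markers in the table, 3 (Ins1, Ins2 and Iapp) were at 0 throughout, 6 of the 8 tested fell in KO and 0 rose, and their summed level was 2748 to 3474 FPKM in FL and 1920 to 2664 FPKM in KO. Of 7 tested α cell markers, 3 fell, with a summed level of 623 to 841 FPKM in FL and 418 to 573 FPKM in KO, and Gcg was at 0. All 6 tested markers of mesenchyme and smooth muscle rose (17.6 to 26.6 FPKM summed in FL, 33.6 to 42.2 FPKM in KO). Summed leukocyte markers were at 50.5 to 68.3 FPKM in FL and 88.3 to 99.7 FPKM in KO, with 2 of 5 tested genes higher and 1 lower, and summed endothelial markers at 208 to 239.8 FPKM in FL and 228 to 299.7 FPKM in KO, with 3 of 8 higher. Of 4 tested δ cell markers 1 fell and 0 rose (2 and 0 at an unadjusted p under 0.05 from limma), with a summed level of 4960.3 to 5853 FPKM in FL and 3993 to 5340.0 FPKM in KO. The summed β, α, mesenchymal and leukocyte markers did not overlap between the groups, and those of δ and endothelial cells did. The part of these cell types in the differences of Atp2a3, Itpr2, Itpr3 and Stim1 was not tested.

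Other genes of calcium handling were taken from 10 lists by role, with 133 genes in the table and 103 tested. In KO, 24 of the 103 fell and 6 rose, where 16.5% and 9.05% of all tested genes did, with a median log2 fold change of −0.06, against −0.06 for all tested genes. After rescaling by median ratio 20 fell and 11 rose, beside 1530 and 1614 of all 13065 tested genes. After rescaling to the same upper quartile 19 fell and 12 rose, beside 1455 and 1675 of all tested genes. Of 3 tested regulators of SERCA, Mrln, which encodes the small SERCA inhibitor myoregulin, fell from 70.1 ± 10.6 to 45.9 ± 4.37 FPKM (log2 fold change −0.59) and Vmp1, an ER membrane protein that modulates the pump, rose from 117 ± 11.7 to 139 ± 8.59 FPKM (0.24; SD, n = 5). The inhibitor Sln was at 0 in all libraries, and Pln was at 0 in FL and above 0 in 1 KO library. Of 15 tested luminal calcium binders and chaperones, Nucb2 (log2 fold change 0.60) and Calu (0.53) rose and Rcn1 (−0.20) fell.

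Next to the release channels, 6 of 16 tested genes of IP3 formation and removal fell and 0 rose, among them the phosphatase Inpp5a, which removes IP3 (log2 fold change −0.52), the phospholipases Plcxd3 (−0.54) and Plcg2 (−0.37), and the G protein subunit Gna11 (−0.18). Of 8 tested regulators of the IP3 receptor 0 were called by limma (1 at an unadjusted p under 0.05). Among 12 tested partners of ryanodine receptors, the junctophilins Jph3 (−0.77) and Jph4 (−0.34), the kinase Camk2b (−0.24) and the immunophilin Fkbp1b (−0.24) fell, and Trdn was at 0 in all libraries. Of 10 tested ER leak and counterion channels, Tmem38a (0.27) rose and Tmem203 (−0.28) and Pkd2 (−0.16) fell. Of 9 tested partners of store entry, the channel Orai3 (−0.18) was called lower and 0 were called higher by limma (1 lower and 2 higher at an unadjusted p under 0.05), and of 7 tested genes of Golgi and endolysosomal stores 0 were called by limma (0 at an unadjusted p under 0.05).

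Extrusion at the plasma membrane had the lowest median of the 10 lists, −0.35, with 6 of 8 tested genes lower and 1 higher. The pumps Atp2b4 (log2 fold change −0.66) and Atp2b2 (−0.46), the exchanger Slc8a2 (−0.56) and the pump subunit Bsg (−0.38) fell, and Nptn, another subunit, rose (0.30). Slc8a2 was low, with means of 1.95 ± 0.208 FPKM (FL) and 0.997 ± 0.127 FPKM (KO; SD, n = 5), and its log2 fold change was −0.90 with a pseudocount of 0.1. Of 15 tested genes of mitochondrial calcium uptake, Ccdc109b, which encodes the uniporter subunit MCUb (−0.88), Hspa9 (−0.25) and Letm1 (−0.27) fell and the uniporter pore Mcu (0.25) rose. Vmp1, Rcn1, Gna11, Fkbp1b, Pkd2, Tmem203, Orai3 and Nptn lost their call in alternatives besides the 1.5-fold threshold. Of the 23 alternatives, that threshold included, Tmem203 was not called in 15, Fkbp1b in 14, Vmp1, Pkd2 and Nptn in 8 each, Rcn1 in 4, and Gna11 and Orai3 in 2 each.

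**Figure D4:**
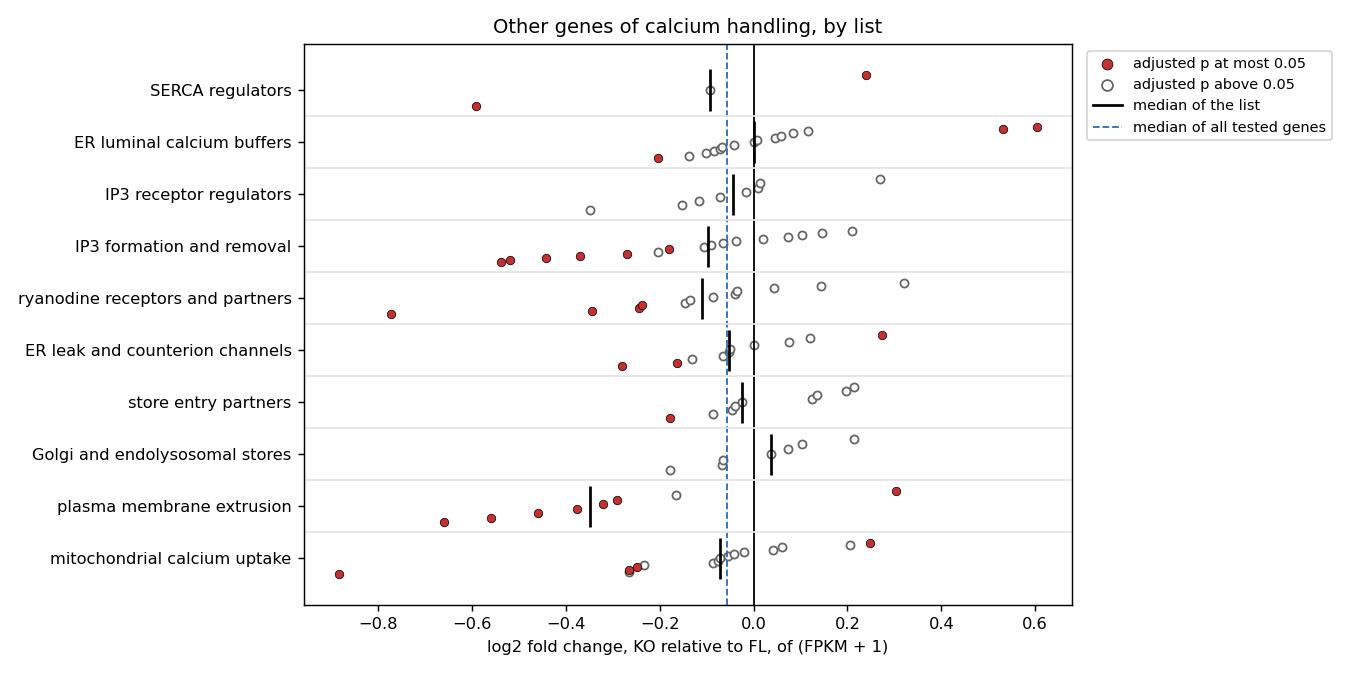
Log2 fold change of KO relative to FL on log2(FPKM + 1) (horizontal axis) for the 103 tested genes of 10 calcium handling lists (rows), filled where the adjusted p from limma was at most 0.05. Black ticks are list medians and the dashed line is the median of all tested genes. The median of plasma membrane extrusion, −0.35, is the farthest from it.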

How the data were processed

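RNA of islets from 5 FL and 5 KO mice was sequenced (poly(A) mRNA, single end). The values deposited by the authors are FPKM, in 1 table with 10 columns, 1 for each mouse. The submitters' processing notes name STAR 2.5.2a, Cuffnorm 2.2.1, mm10 and GRCm38. Whether strand was used in counting is not given in the sources used here. The 10 genes and all lists were chosen with earlier results of these data known. Coordinates are from GENCODE release 21 of the mouse (M21, GRCm38), which held the identifiers of all 10 genes, 5 of them with the same version.

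Log2(FPKM + 1) was fitted by group, without covariates, in limma 3.58.1 (R 4.3.3, lmFit and trended eBayes). The 13065 genes tested averaged 1 FPKM or more in FL or KO. Benjamini-Hochberg adjusted p-values come from a test of the group difference against the spread between mice, with that spread moderated across genes. Named were the 10 genes, Fitm2, up to 4 called genes of each list by adjusted p, rows at 0 in a whole group, and genes like Atp2a2 (0 in one group, at least 50 FPKM throughout the other). Nptn and Gna14 were named after their values were seen. Shares are given without a test. Alternatives covered the pseudocount, filter, scaling, variance model, sample weights, a replicate block, a 1.5-fold threshold and leaving out each mouse. One alternative, without genes at 0 in a whole group, was chosen after seeing the data. On simulated data, 79 of 100 genes with a log2 change of 0.5 and 98 of 100 with a change of 1 were called, and so were 10 unchanged genes. The simulation ran on 12933 genes, without those at 0 in a whole group. Its noise was drawn independently for each gene and library, with no shift in scaling between libraries. Fewer genes were changed than were called in the data, so these counts are not error rates of the data. Summaries used Python 3.11.15 with pandas 2.3.3.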

Additional observations from a re-analysis of the deposited data

Results flagged for a closer look

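One library stood apart from the others of its group, by Dixon's criterion at 95%, in 5 of 79 groups tested over the genes named above, where chance would give 3.95. For Orai1, KO 4 was at 5.82 FPKM and the other KO libraries at 6.89 to 7.28 FPKM. For Inpp5a, FL 4 was at 40.4 FPKM and the others at 35.0 to 36.5 FPKM. For Calu, FL 4 was at 21.5 FPKM and the others at 26.0 to 27.8 FPKM. For Pkd2, FL 5 was at 16.5 FPKM (others 15.0 to 15.3 FPKM) and KO 2 was at 12.5 FPKM (others 13.8 to 14.1 FPKM).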

How the results depend on the processing

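The calls of Atp2a3, Itpr2, Itpr3 and Stim1 held in 22 or all of the 23 alternatives, and the exceptions were Atp2a3 and Stim1 under the 1.5-fold threshold. With that threshold, which keeps fewer genes by construction, 2 of the 10 genes, both of them lower in KO, 4 lower and 1 higher gene of the 10 lists, and 290 lower and 349 higher of all tested genes (639 in all) were called. Without 1 mouse, the adjusted p of Stim2 fell below the threshold for FL 4 or KO 2. The log2 fold change of Orai1 turned to −0.0037 with sample weights and ranged from −0.016 to 0.068 when each mouse was left out, and the cause was not tested. With the replicate block, 2368 of all tested genes and the same number of the 10 genes, 4, were called. As deviations from their group mean, same-numbered libraries had correlations of −0.10 to 0.00 over genes. Such correlations cannot decide whether the mice were paired, for example by litter or by day of isolation. Ryr2 was close to 0 in both groups and was not tested by limma. Depth in reads is unknown, and the 0 values of Atp2a2 in FL leave it without a comparison.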
